A study of Camelina sativa with 12 samples.

Results

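MYB74 and MYB102 are R2R3-MYB transcription factors, and *C. sativa*, a hexaploid with 3 sub-genomes, carries 3 homeologues of each: Csa02g009840, Csa08g049290 and Csa13g053050 for MYB74, and Csa11g025000, Csa12g036900 and Csa10g021970 for MYB102. These 6 genes, of 89418 in the deposited table, are described here across 4 groups of salt-treated plants. They were taken from the genes that the study described as less induced by salt after soil inoculation with *P. migulae* 8R6. The libraries of 8R6-treated and control plants therefore chose the genes, and the difference between those groups is given as a description without any test.

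MYB proteins of the R2R3 type bind DNA through a pair of imperfect repeats and form one of the largest families of plant transcription factors. In *A. thaliana*, MYB74 and MYB102 belong to the same subgroup as MYB41 and MYB49, MYB74 transcripts accumulate under salt and osmotic stress, and MYB102 responds to osmotic stress, wounding and abscisic acid (ABA) and, when over-expressed, raises transcripts of ACC synthase genes. ACC is the direct precursor of ethylene, and ACC deaminase, the product of the bacterial *acdS* gene, breaks it down.

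RNA came from whole shoots of *C. sativa* DH55, with 3 libraries for each of 4 groups. The first, called 8R6 plants here, was DH55 whose soil had been inoculated with *P. migulae* 8R6, a bacterium that produces ACC deaminase. In *35S::acdS* plants the double CaMV 35S promoter drives *acdS* of *Pseudomonas* sp. UW4, in *rolD::acdS* plants the root-preferential *rolD* promoter of *A. rhizogenes* drives the same gene, and control plants were DH55 without the gene or the bacterium. Control soil received MgSO4 buffer in place of bacteria, and the methods do not say whether the soil of the transgenic plants did. All plants were given NaCl at 15 dS per m (192 mM) and, by the labels and the RNA methods, were harvested at 28 days, after 21 days of salt. The salt treatment section of the methods gives a later start of salt, so the duration is uncertain. The methods describe individual single-copy transgenic lines, and do not say whether more than 1 line per construct gave the libraries. Each construct may therefore stand for a single insertion. No unsalted plant is among the 12 libraries. The replicates are called biological in the methods, but whether a replicate was 1 plant or a pool is not given in the sources used here.

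Library totals ranged from 10520627 to 23587748 counts, and 56932 genes reached 0.5 CPM (counts scaled to library size) in 3 or more libraries and were tested; they held between 99.81% and 99.85% of the counts. All 6 homeologues passed this filter, with 13 to 363 counts in a library, so that counting error alone gave a coefficient of variation of 27.7% at the lowest count and 5.25% at the highest. Levels are given as CPM after TMM scaling of library sizes. A read that matches more than 1 homeologue could have been shared among them, and its treatment is not given in the sources used here, so each set of homeologues is also given as a sum. Photosystem genes were looked at beside the shoot label. All 4 were detected in all 12 libraries, though Csa01g001010 had only 2, 4 and 5 counts in *35S::acdS* plants. According to the paper, roots express photosynthetic genes too, so detection cannot tell shoot from root. The summed level of the 4 lay between 116 and 135 CPM in 8R6 plants, 40.1 and 58.6 CPM in *35S::acdS* plants, 55.6 and 73.4 CPM in *rolD::acdS* plants and 38.9 and 52.7 CPM in the control. These genes are named in the study for their higher transcript under the bacterial treatment, so their high level in those libraries was part of how they were chosen. Nothing is read from it beyond detection, and its part in the MYB values was not tested.

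The 3 MYB74 homeologues together had 10.6, 5.81 and 3.06 CPM in 8R6 plants, 31.2, 29.0 and 22.6 CPM in *35S::acdS* plants, 32.4, 11.1 and 16.6 CPM in *rolD::acdS* plants and 55.4, 14.3 and 36.3 CPM in the control. All 3 8R6 libraries lay below the 9 others, whereas the ranges of the other 3 groups overlapped one another. The group means were 6.48 ± 3.80 CPM in 8R6 plants, 27.6 ± 4.47 CPM in *35S::acdS* plants, 20.0 ± 11.1 CPM in *rolD::acdS* plants and 35.3 ± 20.6 CPM in the control (SD, n = 3 each). By mean, the order from low to high was 8R6, *rolD::acdS*, *35S::acdS* and control, and of the neighbours in this order only 8R6 and *rolD::acdS* plants did not overlap.

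Together, the 3 MYB102 homeologues had 4.43, 5.16 and 3.84 CPM in 8R6 plants, 11.4, 11.1 and 8.14 CPM in *35S::acdS* plants, 15.5, 6.65 and 8.68 CPM in *rolD::acdS* plants and 18.0, 7.63 and 17.2 CPM in the control. Again the 8R6 libraries were the lowest of the 12, and the other groups overlapped. The means were 4.48 ± 0.662 CPM in 8R6 plants, 10.2 ± 1.81 CPM in *35S::acdS* plants, 10.3 ± 4.64 CPM in *rolD::acdS* plants and 14.3 ± 5.76 CPM in the control (SD, n = 3 each). Over the 12 libraries the MYB74 sum spanned an 18.1-fold range and the MYB102 sum a 4.68-fold range. In bulk RNA, fewer cells that express these genes and less of the transcript per cell cannot be told apart.

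**Figure D1:**
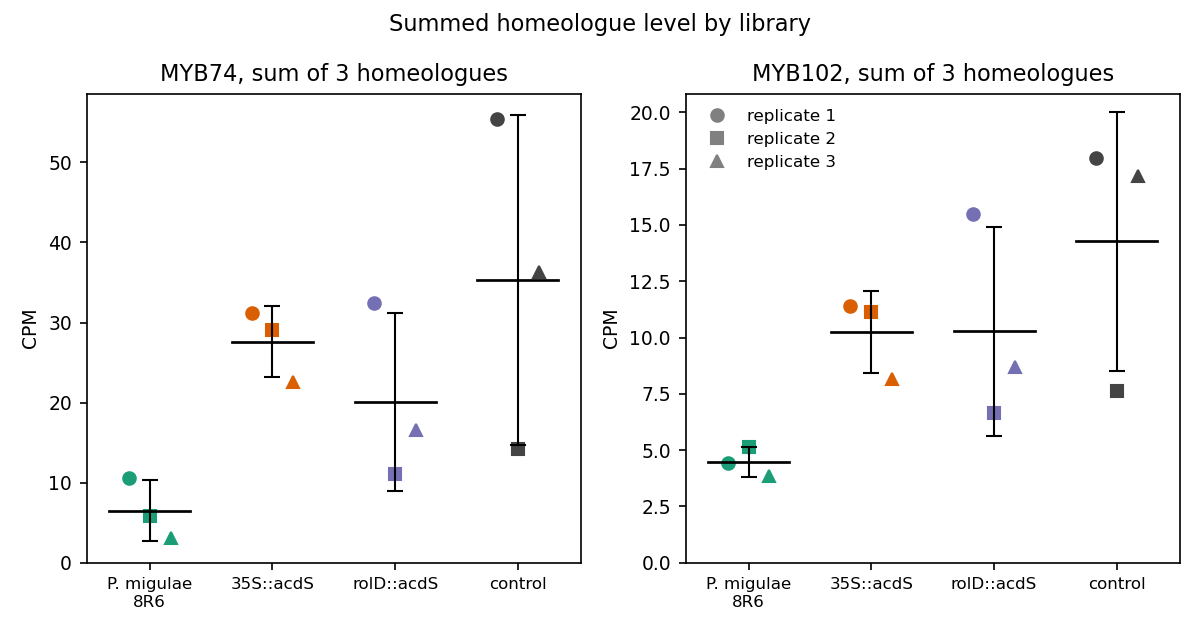
Summed CPM of the 3 MYB74 homeologues (left) and the 3 MYB102 homeologues (right) in each of the 12 libraries, with the group mean (bar) and SD (whiskers, n = 3). The 8R6 libraries, at 3.06 to 10.6 CPM for MYB74 and 3.84 to 5.16 CPM for MYB102, are the lowest in both panels, and control replicate 2 lies far below the other 2 control libraries.

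Among the MYB74 homeologues, Csa02g009840 had 3.96, 2.06 and 1.02 CPM in 8R6 plants, 10.3, 10.6 and 7.71 CPM in *35S::acdS* plants, 11.3, 3.46 and 6.22 CPM in *rolD::acdS* plants and 20.9, 4.57 and 15.1 CPM in the control. Csa08g049290 had 3.24, 2.19 and 0.972 CPM in 8R6 plants, 10.6, 10.4 and 8.66 CPM in *35S::acdS* plants, 10.7, 4.19 and 5.33 CPM in *rolD::acdS* plants and 18.2, 4.32 and 10.9 CPM in the control. For Csa13g053050 the values were 3.37, 1.55 and 1.07 CPM in 8R6 plants, 10.3, 8.11 and 6.24 CPM in *35S::acdS* plants, 10.5, 3.46 and 5.03 CPM in *rolD::acdS* plants and 16.3, 5.38 and 10.3 CPM in the control. The same libraries stood at the ends for all 3 homeologues: 8R6 replicate 3 was the lowest of the 12 and control replicate 1 the highest. Within *rolD::acdS* plants replicate 1 was the highest library for each of them, and within the control replicate 2 was the lowest.

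The MYB102 homeologue Csa11g025000 had 1.41, 2.13 and 1.31 CPM in 8R6 plants, 3.53, 3.46 and 3.29 CPM in *35S::acdS* plants, 5.51, 2.00 and 3.16 CPM in *rolD::acdS* plants and 5.43, 2.44 and 5.84 CPM in the control. Csa12g036900, the member with the fewest counts, had 1.15, 0.839 and 0.923 CPM in 8R6 plants, 2.30, 2.26 and 1.91 CPM in *35S::acdS* plants, 2.86, 1.64 and 1.97 CPM in *rolD::acdS* plants and 3.87, 1.94 and 3.13 CPM in the control. Csa10g021970 had 1.88, 2.19 and 1.60 CPM in 8R6 plants, 5.59, 5.41 and 2.95 CPM in *35S::acdS* plants, 7.13, 3.00 and 3.55 CPM in *rolD::acdS* plants and 8.68, 3.25 and 8.22 CPM in the control. The lowest value of each was in an 8R6 library and the highest in a control library, with control replicate 2 again the lowest of its group. The coefficient of variation of Csa11g025000 was 3.51% in *35S::acdS* plants, which is below the counting error of 11.3% to 16.2% in those libraries and so cannot be read as uniformity. It was 50.2% in *rolD::acdS* plants and 40.6% in the control.

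**Figure D2:**
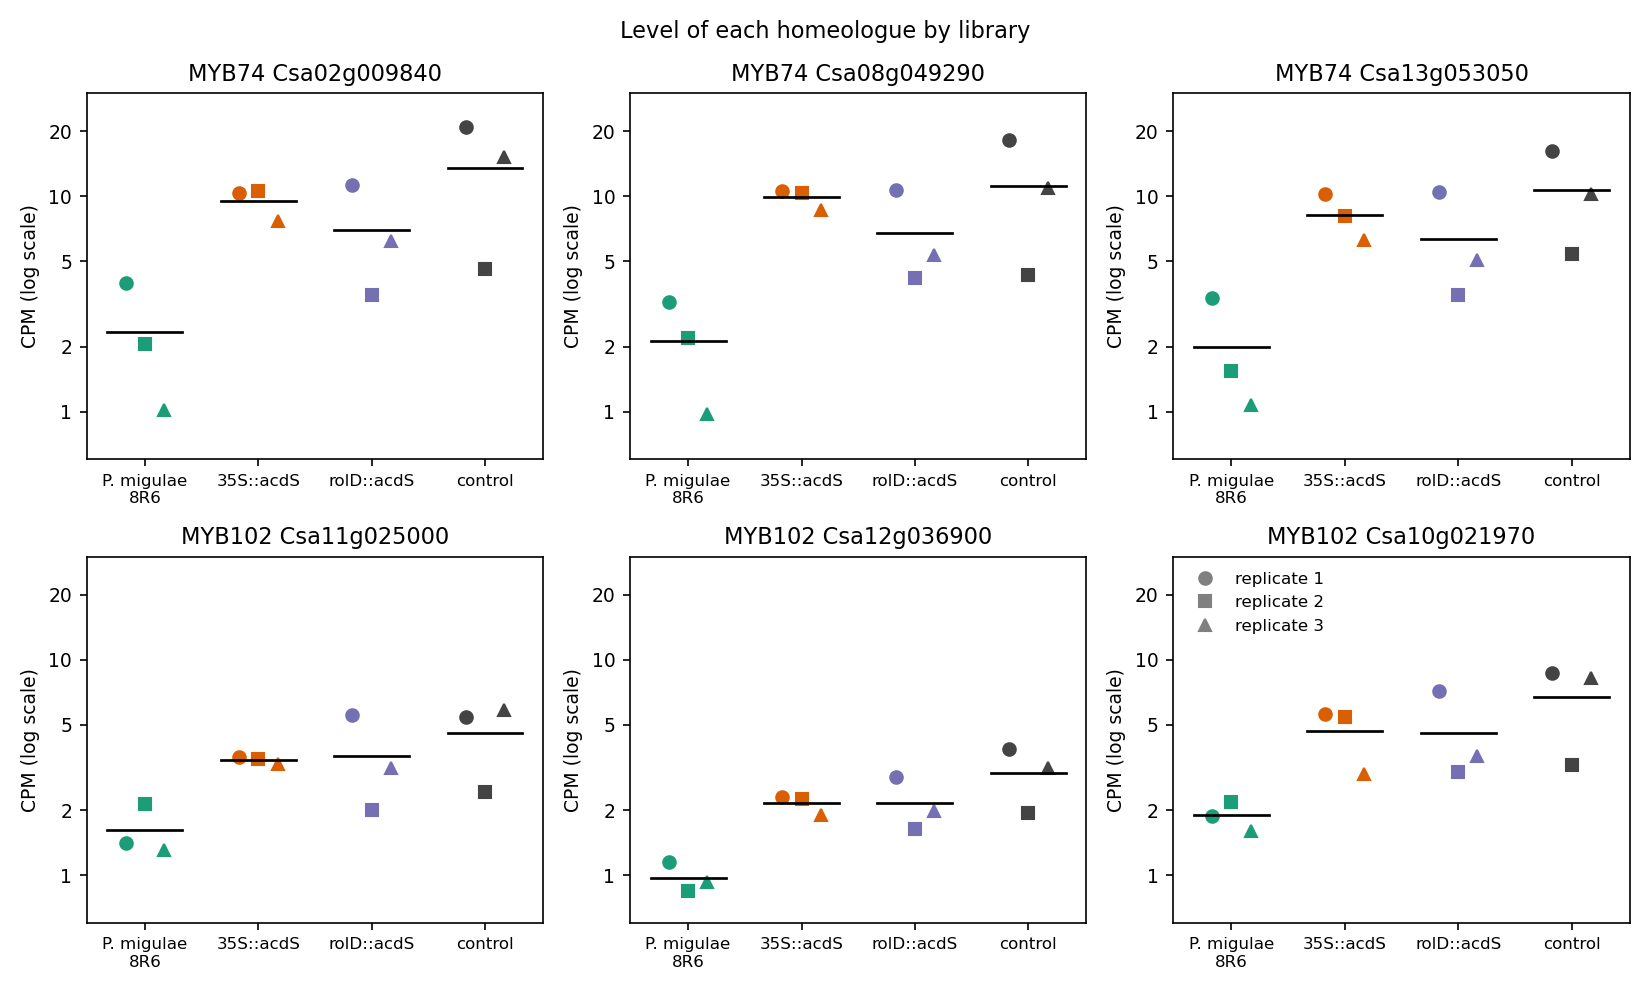
CPM of each of the 6 homeologues by library, on a log axis, with the group mean as a bar and the replicates as circles, squares and triangles (n = 3 per group). In every panel the 3 8R6 libraries lie below the 3 control libraries, while the *35S::acdS* and *rolD::acdS* libraries overlap with the control.

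Plants given *P. migulae* 8R6 had less transcript of all 6 homeologues than the control. The fitted log2 fold changes were -2.50 ± 0.57 for Csa02g009840, -2.37 ± 0.52 for Csa08g049290 and -2.37 ± 0.50 for Csa13g053050 (± SE), which are levels 5.65, 5.15 and 5.19 times lower. For the MYB102 homeologues they were -1.53 ± 0.38 for Csa11g025000, -1.59 ± 0.29 for Csa12g036900 and -1.84 ± 0.41 for Csa10g021970, or 2.88, 3.02 and 3.58 times lower. The groups did not overlap in 6 of the 6 genes, against 7.02% of all genes tested, and 6 of 6 had a log2 fold change below -1, against 2.05%. These libraries chose the genes, so nothing is read from these counts, and no p-value is given. Without 8R6 replicate 1 the fold of the MYB74 homeologues grew, to -3.17 for Csa02g009840 and -3.03 for Csa13g053050 on the log2 scale, and without control replicate 1 it shrank, to -2.06 and -1.95.

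The 8R6 libraries also chose the genes in any comparison with the transgenic lines, so those differences are likewise a description. Against *35S::acdS* plants, the 8R6 libraries were lower without overlap in 6 of the 6 homeologues (12.5% of all genes tested), with a mean MYB74 sum 4.26 times lower and a mean MYB102 sum 2.28 times lower. Against *rolD::acdS* plants they were lower without overlap in 4 of the 6 (9.76% of all genes tested), and the sums were 3.09 and 2.29 times lower. The 2 homeologues that overlapped were Csa02g009840, at 3.96 CPM in the highest 8R6 library and 3.46 CPM in the lowest *rolD::acdS* library, and Csa11g025000, at 2.13 CPM in the highest 8R6 library and 2.00 CPM in the lowest *rolD::acdS* library.

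The *35S::acdS* line was compared with the control to ask whether *acdS* expressed throughout the plant altered the same genes. The control libraries are the ones that helped to choose the members, so the comparison is not independent of that choice. The fitted log2 fold changes were -0.50 ± 0.52, -0.17 ± 0.46 and -0.37 ± 0.46 for the MYB74 homeologues Csa02g009840, Csa08g049290 and Csa13g053050, and -0.42 ± 0.36, -0.46 ± 0.27 and -0.52 ± 0.38 for the MYB102 homeologues Csa11g025000, Csa12g036900 and Csa10g021970. All 6 were negative, as were 50% of all genes tested, but the sign of Csa08g049290 turned with limma (0.032), and without control replicate 1 it was 0.35 and that of Csa13g053050 was 0.050. None of the 6 passed an adjusted p of 0.05 with a fold above 2, nor did any other gene (0% called, edgeR's quasi-likelihood test, Benjamini-Hochberg adjusted), and adjusted p-values of the 6 lay between 0.672 and 0.936. Since this call found no gene here or in the comparisons with *rolD::acdS* plants below, it could not set the homeologues apart from other genes. The paper, with its own edgeR settings, reported differentially regulated genes in both lines on the same libraries. At an unadjusted p under 0.05, 0 of 6 passed (7.75% of all genes tested), and DESeq2 and limma called 0 of 6 (0.0334% and 0% of all genes). Non-overlapping groups were found for 0 of 6 (7.51% of all genes lower). The 95% interval reached lowest for Csa02g009840, from -1.62 to 0.62, and least low for Csa12g036900, from -1.05 to 0.14. All 6 intervals extended below -1, so the data do not exclude a 2-fold decrease in any of these genes.

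For *rolD::acdS* plants against the control, the log2 fold changes were -0.90 ± 0.53, -0.67 ± 0.47 and -0.68 ± 0.46 for Csa02g009840, Csa08g049290 and Csa13g053050, and -0.31 ± 0.36, -0.42 ± 0.27 and -0.50 ± 0.38 for Csa11g025000, Csa12g036900 and Csa10g021970. All 6 were negative (48.5% of all genes tested) with the same control libraries as before, and 0 of 6 passed edgeR's quasi-likelihood test after Benjamini-Hochberg adjustment (0% of all genes), with adjusted p-values between 0.689 and 0.865. Neither an unadjusted p under 0.05 (8.38% of all genes) nor DESeq2 (0.288%) nor limma (0.00176%) called any of the 6, and the groups overlapped in all 6 (7.18% of all genes lower without overlap). The 95% interval of Csa02g009840, the member furthest below the control, ran from -2.05 to 0.24. Single libraries moved these values by more than 1.5 times: that of Csa02g009840 was -1.49 without *rolD::acdS* replicate 1 and -0.47 without control replicate 1, and that of Csa11g025000 was -0.84 without *rolD::acdS* replicate 1 and -0.05 without *rolD::acdS* replicate 2. All 6 stayed negative whichever library was left out, but they share the control libraries that helped to choose them. Homeologues of a set may also share reads, so these are not 6 separate observations. All 6 of the 95% intervals included 0 and extended below -1, so a 2-fold decrease is not excluded in any of these genes.

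The transgenic lines carry the same enzyme under different promoters, and the root-preferential *rolD* promoter is also active in shoots, though much more weakly than the constitutive one. Libraries of these lines did not choose the genes. The MYB74 homeologues were fitted lower in *rolD::acdS* plants, by -0.40 ± 0.53 for Csa02g009840, -0.50 ± 0.48 for Csa08g049290 and -0.32 ± 0.47 for Csa13g053050, with 95% intervals of -1.57 to 0.76, -1.55 to 0.54 and -1.34 to 0.70. The MYB102 homeologues lay near 0, at 0.11 ± 0.37 for Csa11g025000, 0.04 ± 0.28 for Csa12g036900 and 0.01 ± 0.39 for Csa10g021970, with intervals of -0.69 to 0.91, -0.58 to 0.66 and -0.84 to 0.87. Thus 3 of 6 were negative, as were 49.3% of all genes tested. With limma all 3 of the MYB102 values fell just below 0, and without *rolD::acdS* replicate 1 they were -0.41, -0.26 and -0.52, so their sign is not settled. Adjusted p-values were 0.659 to 0.993, and 0 of 6 were called by edgeR's quasi-likelihood test after Benjamini-Hochberg adjustment (0% of all genes), by an unadjusted p under 0.05 (12.8%), by DESeq2 (0.188%) or by limma (0.00176%). Non-overlapping groups were found in 0 of 6 (9.97% of all genes lower). A 2-fold difference in a MYB74 homeologue lies inside these intervals, whereas for MYB102 they end short of it.

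**Figure D3:**
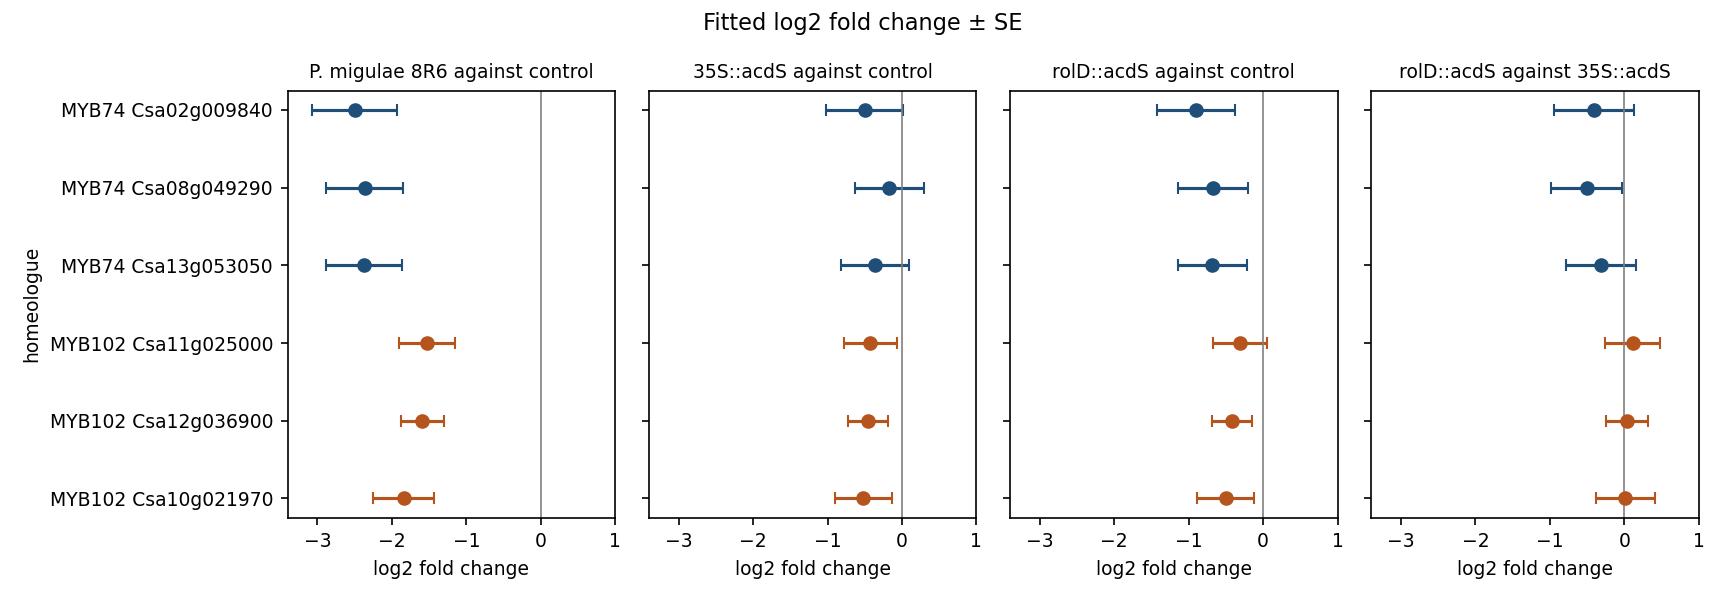
Fitted log2 fold change (point) and SE (whiskers) of the 6 homeologues in 4 comparisons, each with 3 libraries a group, with MYB74 in blue and MYB102 in orange. Against the control, values in 8R6 plants range from -2.50 to -1.53, those of *35S::acdS* plants from -0.52 to -0.17, those of *rolD::acdS* plants from -0.90 to -0.31, and those of *rolD::acdS* against *35S::acdS* from -0.50 to 0.11.

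Sums over homeologues gave the same picture for the lines. The mean log2 level of the MYB74 sum differed by -0.59 between *rolD::acdS* and *35S::acdS*, by -0.16 between *35S::acdS* and the control, and by -0.76 between *rolD::acdS* and the control. For the MYB102 sum the differences were -0.07, -0.40 and -0.47. In the order of those 6 values, exact two-sided permutation tests gave p = 0.4, 0.8, 0.4, 1, 0.4 and 0.4, or 0.6, 0.96, 0.6, 1, 0.6 and 0.6 after Benjamini-Hochberg adjustment over the 6. With 3 libraries against 3 the smallest p is 0.1, so the design could not have passed 0.05. Without control replicate 1, the MYB74 difference between *35S::acdS* and the control turned to 0.27. Between *rolD::acdS* and the control it was -0.33 without control replicate 1 and -1.31 without control replicate 2, and the MYB102 difference was -0.20 without *rolD::acdS* replicate 2 and -0.87 without control replicate 2.

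The spread between libraries of a group was large for most of these genes. The biological coefficient of variation fitted by edgeR was 0.458 for Csa02g009840, 0.412 for Csa08g049290 and 0.403 for Csa13g053050, at the percentiles 96.5, 95.3 and 95.01 of all genes tested. For the MYB102 homeologues it was 0.298 (Csa11g025000), 0.204 (Csa12g036900) and 0.326 (Csa10g021970), at the percentiles 89.1, 73.3 and 91.2, where the median gene had 0.151. Within groups, the coefficient of variation of the MYB74 sum was 58.6% in 8R6 plants, 16.2% in *35S::acdS* plants, 55.3% in *rolD::acdS* plants and 58.3% in the control. The MYB102 sum varied by 14.8% in 8R6 plants, 17.7% in *35S::acdS* plants, 45.1% in *rolD::acdS* plants and 40.4% in the control. The lowest value for MYB74 was in *35S::acdS* plants and that for MYB102 in 8R6 plants. With 3 libraries a group, 14.8% and 17.7% cannot be told apart, and differences in spread between groups were not tested.

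While the level of each set changed between libraries, the division of its counts among the 3 homeologues varied little. Csa02g009840 held on average 35.5% of the MYB74 counts in 8R6 plants, 34.5% in *35S::acdS* plants, 34.5% in *rolD::acdS* plants and 37.1% in the control. The mean share of Csa08g049290 was 33.4% in 8R6 plants, 36.0% in *35S::acdS* plants, 34.2% in *rolD::acdS* plants and 31.1% in the control. Csa13g053050 took the remaining 31.1% in 8R6 plants, 29.5% in *35S::acdS* plants, 31.3% in *rolD::acdS* plants and 31.8% in the control. The 3 MYB74 homeologues thus contributed nearly equal counts in all 4 groups, though gene lengths were not used here, so counts were not turned into transcript numbers. Over the 12 libraries the chi-square of the MYB74 counts was 1.38 per degree of freedom (22 degrees of freedom), where counting error alone gives about 1.

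MYB102 counts were divided less evenly. Csa10g021970 held the largest share, 42.2% in 8R6 plants, 44.6% in *35S::acdS* plants, 44.0% in *rolD::acdS* plants and 46.2% in the control, and Csa12g036900 the smallest, 22.1% in 8R6 plants, 21.3% in *35S::acdS* plants, 21.9% in *rolD::acdS* plants and 21.7% in the control. Csa11g025000 had 35.7% in 8R6 plants, 34.1% in *35S::acdS* plants, 34.0% in *rolD::acdS* plants and 32.0% in the control. This order held in 11 of the 12 libraries, all but *35S::acdS* replicate 3, and the chi-square was 0.80 per degree of freedom. Between *rolD::acdS* and *35S::acdS*, shares of the 6 homeologues differed by -1.73 to 1.81 percentage points, with exact two-sided permutation p-values of 0.4 to 1 (all 1 after Benjamini-Hochberg adjustment over the 6).

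**Figure D4:**
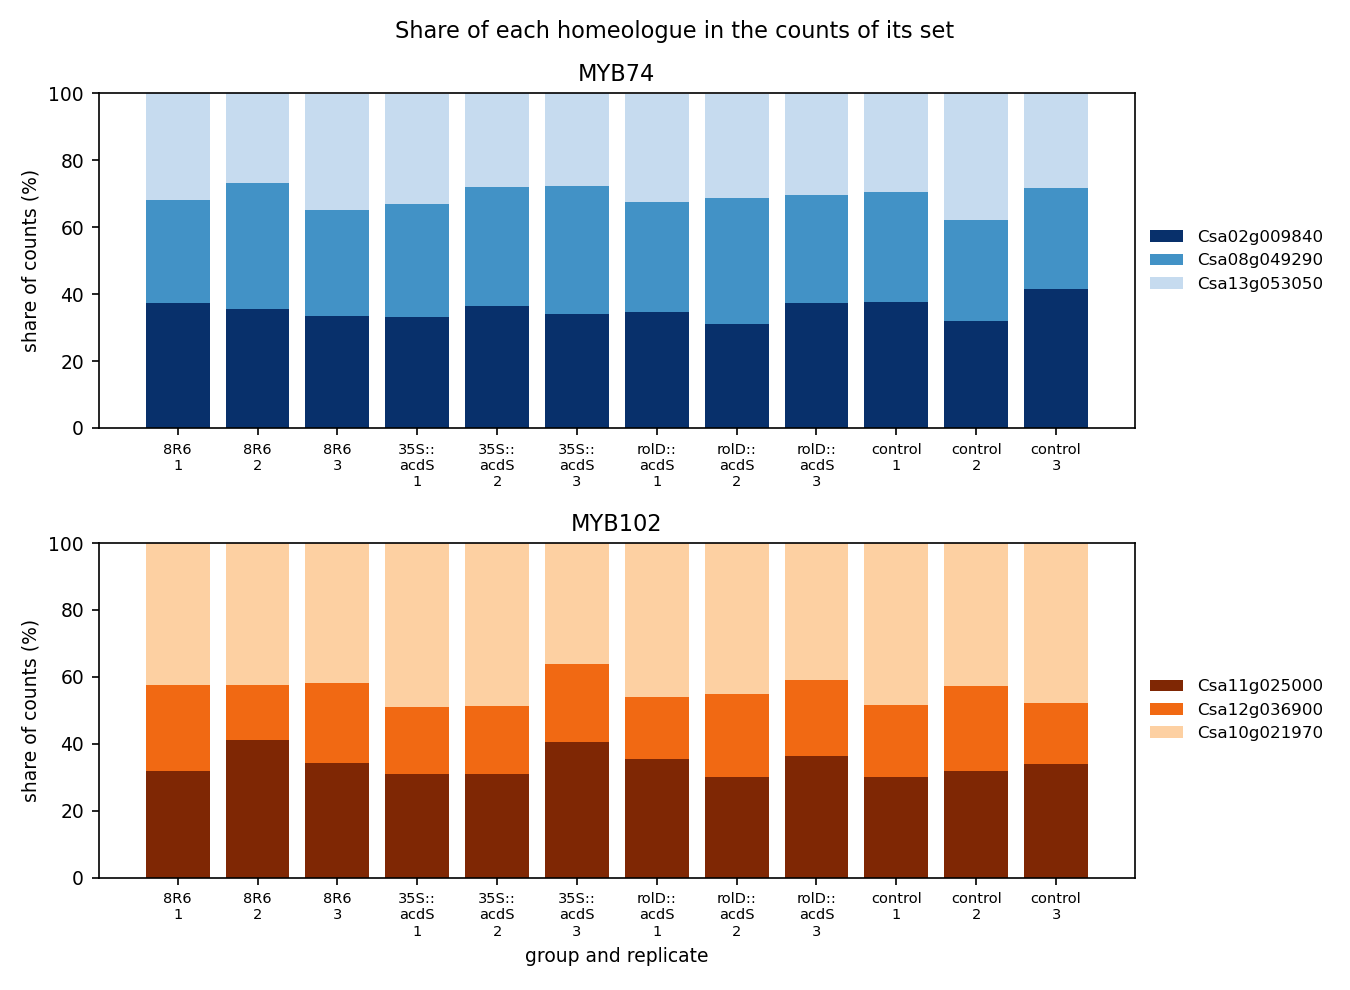
Share of each homeologue in the counts of MYB74 (top) and MYB102 (bottom), in percent, for each of the 12 libraries by group and replicate. The MYB74 shares lie between 26.7% and 41.7% in all libraries, while in MYB102 Csa12g036900 holds 16.2% to 26.0%.

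The homeologues of a set followed one another closely over the 12 libraries. Likeness was measured as the root mean square difference between log2(CPM + 0.5) profiles, each centred on its own mean, against all 56931 other genes tested. For each MYB74 homeologue the 2 nearest genes of all were the other MYB74 homeologues, at differences of 0.182 to 0.206. Of the MYB102 homeologues, Csa11g025000 was the nearest gene to Csa10g021970 at 0.227 and Csa12g036900 ranked 5 for both of them, at 0.240 and 0.270. Seen from Csa12g036900, which has the fewest counts, the others ranked 18 and 60. Homeologues can share reads, which brings their profiles together, and the extent of such sharing was not tested. MYB74 and MYB102 differed more from each other, at 0.435 to 0.612.

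By the same measure, 3 of the 5 genes nearest to the MYB74 sum were the homeologues of RD26, a NAC transcription factor induced by dehydration and ABA in *A. thaliana*: Csa10g015440 at 0.278, Csa12g023460 at 0.306 and Csa11g016750 at 0.366. Csa10g015440 averaged 18.1 CPM in 8R6 plants, 48.9 CPM in *35S::acdS* plants, 37.6 CPM in *rolD::acdS* plants and 76.2 CPM in the control. The other 2 were Csa12g011360 (0.310), annotated as an unknown protein, and Csa10g008790 (0.346), without annotation in the sources used here. Nearest to the MYB102 sum were Csa17g070920 (IAA-leucine resistant-like 6, 0.224), Csa17g024990 (JAZ1, a repressor of jasmonate responses, 0.237), Csa19g032090 (heat shock transcription factor A6B, 0.247), Csa09g012970 (chloride channel B, 0.253) and Csa14g060060 (a peptidase of the M20/M25/M40 family, 0.254). The paper names both Csa14g060060 and Csa17g070920 as hydrolases of conjugates of the auxin IAA. Csa17g070920 averaged 5.56 CPM in 8R6 plants, 13.4 CPM in *35S::acdS* plants, 13.4 CPM in *rolD::acdS* plants and 19.5 CPM in the control. Csa19g032090 averaged only 0.0965 CPM in 8R6 plants and 0.807 CPM in the control. At such levels the 0.5 added before the log narrows the differences, so its rank is uncertain. All of these genes except Csa10g008790 are among those listed as changed after *P. migulae* treatment in the study, on the same libraries, so the likeness rests largely on the difference that chose the members.

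Genes of the same setting were followed through lists made from the genes that the study names, which it selected on these libraries, so their directions against the control are not independent evidence. The study names some of them for a change in a transgenic line, such as PP2C5 Csa04g054460 in *rolD::acdS* plants. Directions between the lines are therefore not independent evidence either. Of 28 ABA and dehydration genes, 28 were fitted lower in 8R6 plants than in the control, with a median log2 fold change of -1.69, between -2.37 for RD29B Csa18g023200, a dehydration-responsive gene, and -0.99 for the phosphatase PP2CA Csa15g015150. In *35S::acdS* plants 19 of 28 were fitted lower, with a median of -0.29, a lowest value of -1.72 for the phosphatase PP2C5 Csa05g012640 and a highest of 0.67 for RD29B Csa18g023200. In *rolD::acdS* plants 26 of 28 were lower, with a median of -0.80, from -2.31 for PP2C5 Csa04g054460 to 0.35 for RD29B Csa02g045340. Between *rolD::acdS* and *35S::acdS*, 27 of 28 were lower, with a median of -0.50, from -1.51 for PP2C5 Csa04g054460 to 0.06 for NCED3 Csa19g021150, an enzyme of ABA synthesis. The median over all genes tested was near 0 in each comparison (0.00 to 0.01). Of all genes tested, 49.8% were fitted lower in 8R6 plants, 50.0% in *35S::acdS* plants and 48.5% in *rolD::acdS* plants than in the control. Between *rolD::acdS* and *35S::acdS* it was 49.3%. In the 3 other comparisons, edgeR's quasi-likelihood test after Benjamini-Hochberg adjustment called 0 of the 28, and limma called 0. DESeq2 called 2 in *rolD::acdS* plants against the control (0.288% of all genes tested) and 0 in the others. At an unadjusted p under 0.05, 6 passed in *35S::acdS* plants (7.75% of all genes tested) and 10 in *rolD::acdS* plants (8.38%), all lower than in the control, and 0 passed between the lines (12.8%).

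**Figure D5:**
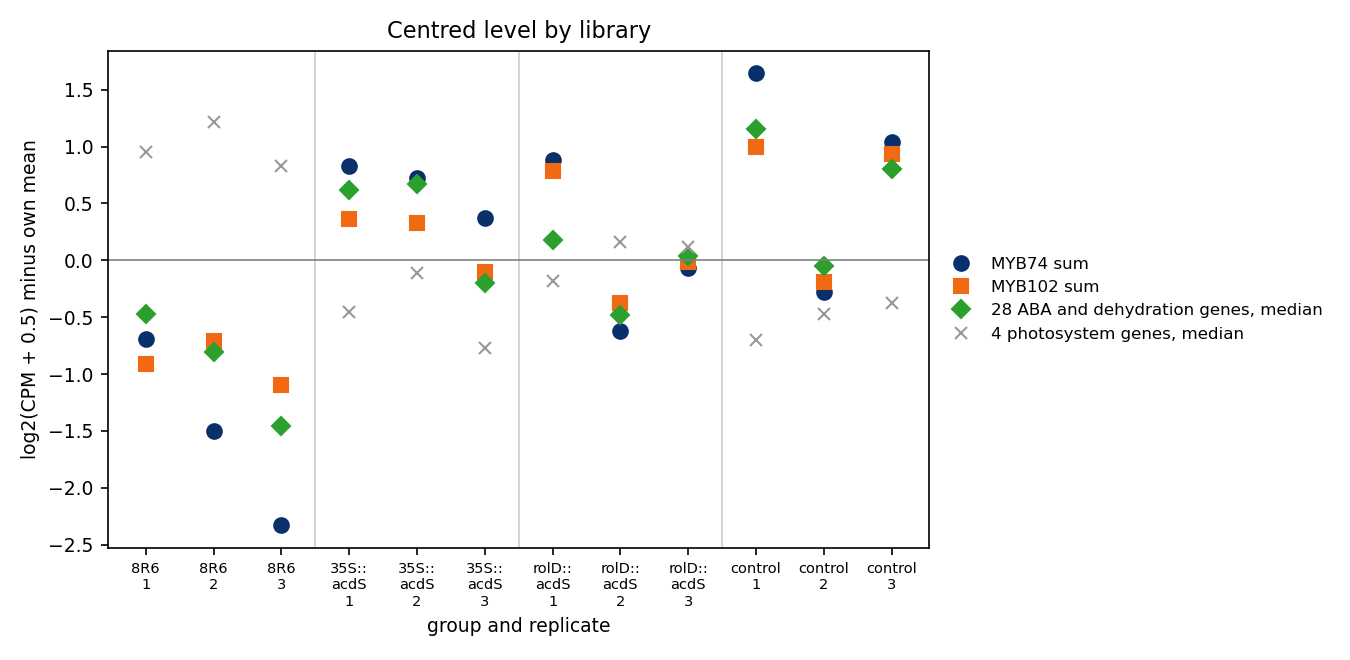
Centred log2(CPM + 0.5) of the MYB74 sum, the MYB102 sum, the median of 28 ABA and dehydration genes and the median of 4 photosystem genes, for each of the 12 libraries by group and replicate. The 8R6 libraries are low for both MYB sums and for the ABA and dehydration genes (-0.47, -0.80 and -1.46) and high for the photosystem genes (0.95, 1.22 and 0.83).

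The plot of centred levels sets the ABA and dehydration genes beside the MYB sums. Their median centred log2 level was -0.47, -0.80 and -1.46 in 8R6 plants, 0.62, 0.67 and -0.20 in *35S::acdS* plants, 0.18, -0.48 and 0.04 in *rolD::acdS* plants and 1.15, -0.05 and 0.80 in the control. Control replicate 2, the lowest control library for all 6 homeologues, was also the lowest control library for these 28 genes, and *rolD::acdS* replicate 2 was the lowest of its group for both.

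Most of the 12 other MYB genes that the study names were fitted lower than in the control, in 8R6 plants and in both lines. In 8R6 plants, 9 of 12 were fitted lower than in the control, with a median log2 fold change of -0.51, from -1.94 for MYB108 Csa01g007530 to 0.52 for MYB28 Csa02g068380, a regulator of glucosinolate synthesis in *A. thaliana*. In *35S::acdS* plants 10 of 12 were lower with a median of -1.20, and in *rolD::acdS* plants 11 of 12 with a median of -0.79. Of all genes tested, 48.5% to 50.0% were fitted lower in these comparisons. MYB52 Csa14g022280, which in *A. thaliana* is linked to secondary cell walls, was the lowest in *35S::acdS* plants, with 0, 2 and 1 counts, against 9, 10 and 9 in the control. Its ratio was 0.124, with a 95% counting interval of 0.0242 to 0.402. Between *rolD::acdS* and *35S::acdS* it was the highest of the list, at 15, 4 and 5 counts in *rolD::acdS* plants and a ratio of 8.47 (2.57 to 43.9). MYB111 Csa18g018750, a regulator of flavonol synthesis in *A. thaliana*, was the highest of the list in both lines against the control, with log2 fold changes of 0.71 in *35S::acdS* plants and 1.27 in *rolD::acdS* plants. MYB122 Csa09g078700 was the lowest in *rolD::acdS* plants, at -2.91 against the control and -1.77 against *35S::acdS* plants, on only 3, 0 and 1 counts. The test of edgeR with Benjamini-Hochberg adjustment, DESeq2 and limma each called 0 of the 12 in these 3 comparisons. At an unadjusted p under 0.05, 7 were lower in *35S::acdS* plants (7.75% of all genes tested in either direction) and 5 lower and 1 higher in *rolD::acdS* plants (8.38%) than in the control. Between the lines 2 were lower and 2 higher in *rolD::acdS* than in *35S::acdS* plants (12.8%), and the median was 0.51. The study selected these MYB genes on the same libraries, so nothing is read from their directions or counts.

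All 7 ethylene synthesis genes, which encode ACC synthases (ACS) and ACC oxidases (ACO), were fitted lower than in the control in each of the 3 groups (48.5% to 50.0% of all genes tested). The median log2 fold change was -1.08 in 8R6 plants (from -1.40 for ACS2 Csa17g001950 to -0.52 for ACO4 Csa14g006260), -1.09 in *35S::acdS* plants and -2.29 in *rolD::acdS* plants. ACO4 Csa14g006260 was also the highest in both lines, at -0.32 in *35S::acdS* plants and -0.98 in *rolD::acdS* plants. ACS7 Csa10g016710 was the lowest, with 0, 16 and 6 counts in *35S::acdS* plants, 3, 0 and 0 counts in *rolD::acdS* plants and 19, 20 and 75 counts in the control. Its ratio in *rolD::acdS* plants was 0.0323, with a 95% counting interval of 0.00657 to 0.0969, and its fitted log2 fold change in *35S::acdS* plants was -2.11. Between *rolD::acdS* and *35S::acdS* all 7 were again lower (49.3% of all genes tested). The median there was -1.28, from -2.88 for ACS7 Csa12g025860 to -0.62 for ACO4 Csa17g008270. By edgeR with Benjamini-Hochberg adjustment and by limma, 0 of the 7 were called in the 3 comparisons without 8R6 plants. DESeq2 called 2 in *rolD::acdS* plants against the control (0.288% of all genes tested). At an unadjusted p under 0.05, 2 passed in *35S::acdS* plants (7.75% of all genes tested), 7 in *rolD::acdS* plants (8.38%) and 2 between the lines (12.8%), all lower. These genes were picked in the study for being lower in *rolD::acdS* plants on the same libraries. The 2 that passed in *35S::acdS* plants, ACS7 Csa11g018190 and Csa10g016710, were also named there for being lower in that line. Nothing is therefore read from these counts.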

How the data were processed

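Per the labels and methods, the authors trimmed reads with Trimmomatic, mapped them with STAR to the *C. sativa* genome and counted them per gene. The deposited table is named for CPM but holds counts, whole numbers that sum to different totals, for 89418 genes, and 0 rows named no gene. The version of each tool is not given in the sources used here, nor is the treatment of reads that match several homeologues. The study's further DESeq normalization is not in these values.

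Groups and replicate numbers came from the labels. Counts were scaled by TMM and tested in edgeR 4.0.16 (R 4.3.3) with 1 quasi-likelihood fit of 4 groups, no covariate, over the 56932 genes that reached 0.5 CPM in 3 or more libraries. A call needed a Benjamini-Hochberg adjusted p of at most 0.05 and a change of more than 1 on the log2 scale. The SE is the absolute log2 fold change over the square root of F. Sums and shares were compared by exact permutation of libraries. DESeq2 1.42.0, limma 3.58.1 on log2(CPM + 0.5), other scaling, no filter, 6-library fits, a replicate block and leaving out each library were alternatives. The fit was tested on simulated data. Counting intervals cover counting error only, since reads are not independent molecules.

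Genes named are the 6 homeologues, the 5 genes nearest to each sum, and the highest and lowest of each list. The homeologues and lists were chosen with earlier results of these data known. Names came from the paper and its supplement, as 0 of 89418 identifiers matched the reference gene table, so no gene length, position or sequence was used. The transgene is not among the genes analysed here.

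Deviations from the group means correlated above 0.1 in 10 of 18 same-numbered pairs (r between -0.390 and 0.319, median 0.126). All 3 pairs did so for 8R6 with *35S::acdS* plants (0.197 to 0.224), which were compared without any test, but for none of the 4 fitted comparisons, so numbers were not treated as pairs.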

Additional observations from a re-analysis of the deposited data

How the results depend on the processing

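The median log2 fold change of the 6 homeologues in 8R6 plants against the control ranged from -2.42 to -1.74 when each library was left out, and all 72 values of single homeologues over the alternatives were negative (-3.17 to -1.20). The libraries of this comparison chose the genes, so nothing is read from these signs. The count of called homeologues in the other 3 comparisons stayed at 0 in all alternatives, with smallest adjusted p-values of 0.603 (*35S::acdS* against control), 0.331 (*rolD::acdS* against control) and 0.385 (*rolD::acdS* against *35S::acdS*).

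Signs turned in 3 of 72 values of *35S::acdS* against the control, 0 of 72 of *rolD::acdS* against the control and 11 of 72 of *rolD::acdS* against *35S::acdS*. With limma, Csa08g049290 was 0.032 in *35S::acdS* against the control, and in *rolD::acdS* against *35S::acdS* Csa11g025000 was -0.045, Csa12g036900 -0.022 and Csa10g021970 -0.065. DESeq2 gave -0.017 for Csa10g021970 in the comparison of the lines. With the replicate block, Csa12g036900 was -0.042 and Csa10g021970 -0.085 between the lines, and the block changed no call. Of the 6 libraries of each comparison, 2 (*P. migulae* 8R6 against control), 0 (*35S::acdS* against control), 2 (*rolD::acdS* against control) and 2 (*rolD::acdS* against *35S::acdS*) correlated best with the library of their own number.

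Leaving out each library gave, for *35S::acdS* against the control, -0.54 to 0.35 for Csa08g049290, -0.67 to 0.050 for Csa13g053050 and -0.71 to 0.27 for the MYB74 sum, positive each time without control replicate 1. For *rolD::acdS* against *35S::acdS* it gave -0.41 to 0.38 for Csa11g025000, -0.26 to 0.19 for Csa12g036900, -0.52 to 0.23 for Csa10g021970 and -0.41 to 0.20 for the MYB102 sum. Share differences there ranged from -1.59 to 1.58 percentage points for Csa02g009840, -1.74 to 3.04 for Csa11g025000, -0.69 to 2.41 for Csa12g036900 and -4.76 to 1.65 for Csa10g021970. From counts summed over each group, the share difference was 2.13 for Csa11g025000 and -0.81 for Csa12g036900. The cause of these turns was not tested. With 13 to 363 counts per homeologue and 3 libraries a group, differences of this size could not be resolved.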

Other observations

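The balance between the MYB74 and MYB102 sets was looked at after the values had been seen. Within a library the ratio of MYB74 to MYB102 counts does not depend on library size. It was 2.38, 1.13 and 0.797 in 8R6 plants, 2.73, 2.61 and 2.78 in *35S::acdS* plants, 2.09, 1.67 and 1.91 in *rolD::acdS* plants and 3.08, 1.87 and 2.11 in the control. The *rolD::acdS* and *35S::acdS* libraries did not overlap, with a mean log2 difference of -0.52 (exact two-sided permutation p = 0.1, the smallest that 3 libraries against 3 can give). Leaving out each library of the comparison gave -0.60 to -0.44, and counts summed over each group gave -0.42. *P. migulae* 8R6 replicate 3 was the only 1 of the 12 libraries with more MYB102 than MYB74 counts.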
